A study of Mus musculus with 9 samples.

Results

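The cytosolic ribosomal protein genes encode the protein subunits of the ribosomes that translate messenger RNA in the cytosol. Members were taken from the gene table by symbol: Rpl or Rps followed by a number and an optional suffix (with the Rps6k kinases left out), and Rplp0, Rplp1, Rplp2 and Rpsa. The rule found 84 genes of the 34745 in the table, 51 of the large subunit (Rpl and Rplp) and 33 of the small subunit (Rps and Rpsa). Of these, 81 passed the filter on low counts and were tested. Rpl10l, Rpl39l and Rpl3l did not pass it, and Rpl10l had no count in any library.

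Messenger RNA was sequenced from 9 liver samples of C57BL/6 mice aged 12 weeks, in 3 groups of 3, and hepatocyte is given as the cell type. The groups were WT with the treatment NC (replicates 1, 2 and 3), WT with CCl4 (replicates 11, 12 and 13) and KO with CCl4 (replicates 72, 75 and 79). Carbon tetrachloride (CCl4) is a solvent that injures hepatocytes, and was given intraperitoneally at 0.25 ml/kg, diluted in olive oil, 2 times a week for 4 weeks. WT was read as the series' Tgfbr2f/f animals, whose TGF-beta receptor 2 gene is floxed, and KO as its Tgfbr2HKO animals. The labels used here do not spell out NC or HKO, or name a promoter driving a recombinase, and all KO samples analysed had received CCl4.

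A ribosome holds 1 copy of most of its proteins, and several of these genes are used as reference genes. Their messenger RNAs start with a run of pyrimidines, the 5′ terminal oligopyrimidine (TOP) motif, through which the growth kinase complex mTORC1 controls their translation rather than their messenger level. Ribosome production rises when liver cells re-enter the cell cycle. A few members have paralogues, close relatives that can replace the standard protein in some tissues, and most have many processed pseudogenes, which are copies of the spliced messenger inserted elsewhere in the genome.

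Total counts ran from 16447353 to 20373585 per library, and 3 counts, the floor used for detection, stood for 0.147 to 0.182 CPM (counts scaled to a fixed library total). The targeted gene Tgfbr2 stood at 31.5, 30.2 and 38.6 CPM in WT NC, at 127, 90.5 and 75.2 in WT CCl4, and at 23.5 in KO 72, 69.9 in KO 75 and 28.3 in KO 79, so the library labelled KO 75 lay near the lowest WT CCl4 library and apart from the other KO libraries. Results on KO are therefore also given without it. Hepatocyte markers (10 of 10 detected in every group) summed to 96932 to 117260 CPM in WT NC, 39475 to 66458 in WT CCl4 and 76025 to 92192 in KO CCl4. Over the same groups in the same order, 8 of 8 macrophage markers summed to 232 to 308, 1702 to 4395 and 391 to 2505 CPM, and 8 of 8 stellate cell and myofibroblast markers to 46.1 to 74.2, 777 to 1724 and 91.1 to 712. Proliferation markers (8 of 8) summed to 45.7 to 46.7, 594 to 765 and 123 to 573 CPM, and 8 exocrine pancreas markers to 13.6 to 16.5, 15.2 to 1150 and 29.0 to 170, with 2 of the 8 at 0 in WT NC. KO 75 was the highest KO library for the last 4 lists. These lists move with each comparison below, and their part in the members' values was not tested.

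Many members share their sequence with other genes, and this bears on how their counts can be read. Annotated copies, defined as genes with at least 50% of their 100-base words inside the member's transcript, numbered 102 for 53 of the 83 members with a protein-coding transcript in GENCODE M21, and 88 of them had a pseudogene biotype. No such transcript was found for Rps4l, so its shared sequence was not assessed. The deposited table listed 19 of the copies, of which 18 had counts. For 10 members the copies held more counts than the member itself over the 9 libraries. Rpl5, which carries 5S ribosomal RNA into the large subunit together with Rpl11, had 3913 counts while its copy Gm15500 had 53168. Rpl9 had 299 counts and Rpl9-ps6 had 19571, Rpl23a had 135 and Rpl23a-ps3 had 16285, Rpl12 had 1504 and Gm10275 had 42022, and Rps27 had 152 and Rps27rt had 13019. Rps7, Rpl27, Rpl35 and Rpl37 were among the others. The sources used here do not say how reads matching several genes were treated, so the separate values of a member and its copy are uncertain. The first 90 coding bases are printed for a copy that matches its member over this stretch and for a paralogue that does not (GENCODE M21 transcripts; Rps27 on chromosome 3, Rps27rt and Rps27l on chromosome 9). Capitals mark bases that differ from Rps27, of which Rps27rt has 0 and Rps27l has 24.
Rps27: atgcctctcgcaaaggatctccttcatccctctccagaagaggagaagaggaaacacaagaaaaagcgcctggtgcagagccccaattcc
Rps27rt: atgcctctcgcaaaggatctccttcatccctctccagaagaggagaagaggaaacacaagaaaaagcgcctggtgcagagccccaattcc
Rps27l: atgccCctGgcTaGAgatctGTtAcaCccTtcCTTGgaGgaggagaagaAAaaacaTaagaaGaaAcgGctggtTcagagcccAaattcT

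**Figure D1:**
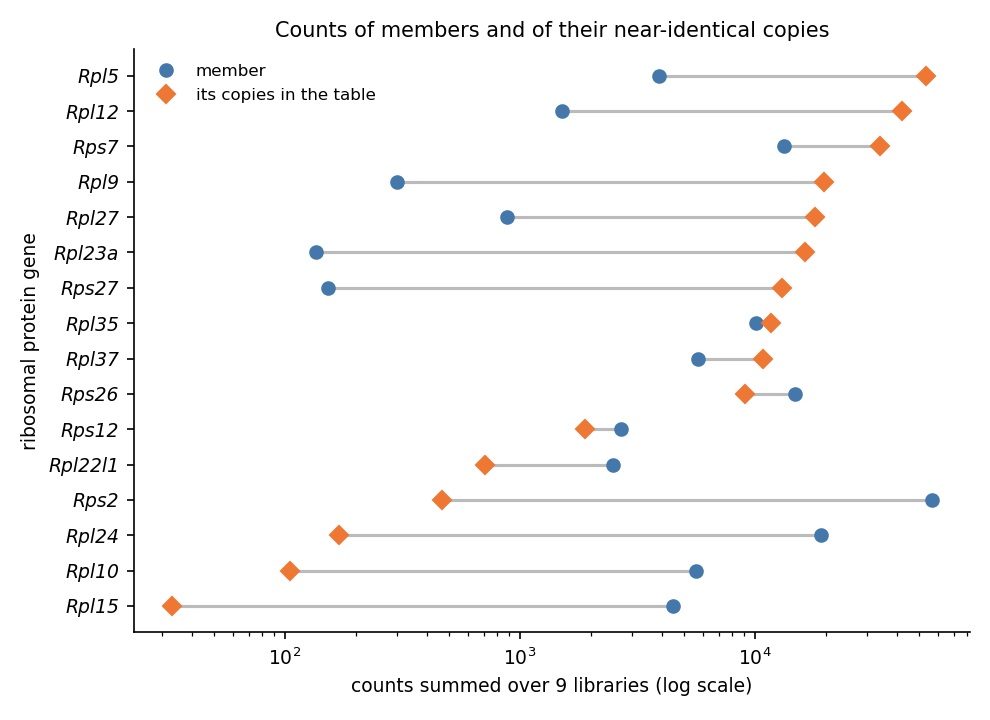
Counts summed over 9 libraries (x axis, log scale) for 16 members that have a near-identical copy with counts in the table (y axis); circles are the member and diamonds its copies. In 9 of the 16 rows the copies lie to the right of the member, by the widest distances for Rpl23a, Rps27 and Rpl9.

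Levels per length, in the authors' FPKM averaged over the 9 libraries, ran from 597 for Rplp1, an acidic protein of the stalk that recruits elongation factors, to 0.169 for Rpl9 among the tested members. Rpl4 followed at 451, Rpl8 at 369 and Rpl13a at 324, and the 5 members with the most counts (Rpl4, Rpsa, Rplp0, Rps2 and Rpl13a) held 26.8% of all member counts. At the other end, Rps27 stood at 0.325 FPKM, Rpl11 at 0.523, Rpl23a at 0.596 and Rps6, the target of the S6 kinases, at 1.26. The listed level was lower for members with more of their 100-base words in another annotated gene. Leaving out the 7 paralogues Rpl3l, Rpl7l1, Rpl10l, Rpl22l1, Rpl39l, Rps4l and Rps27l, the median FPKM was 72.7 over the 16 members with under 20% of their words shared, 35.0 over 39 members with 20 to 60% and 6.15 over 22 members with 60% or more. Levels under 10 FPKM were listed for 0, 15 and 14 of these members. Spearman's rho was -0.46 over the 77 members, as a description of members that were all read from the same 9 libraries. The order of listed levels is therefore not read as an order of messenger abundance, and the comparisons below set each gene only against itself.

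**Figure D2:**
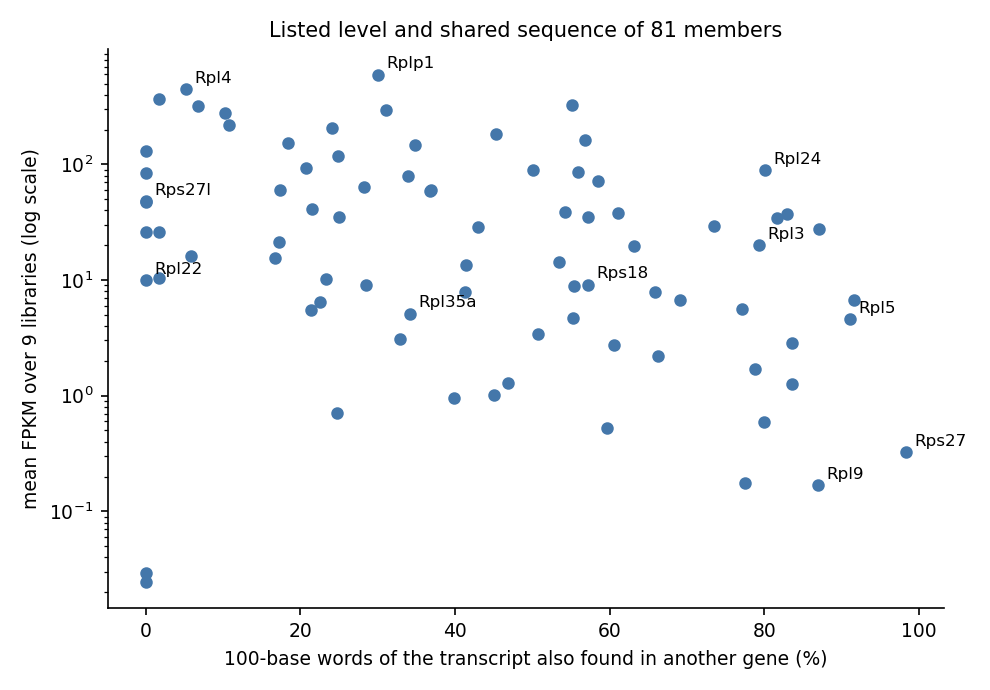
Mean FPKM over 9 libraries (y axis, log scale) against the percentage of 100-base words of the transcript found in another annotated gene (x axis) for 81 members with a protein-coding transcript and a count. Members with under 20% of words shared reach 451 FPKM, while Rps27, with nearly all words shared, lies at 0.325; the 2 points at the lower left are the paralogues Rpl3l and Rpl39l.

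Summed over the 84 members, ribosomal protein genes took 0.892, 0.730 and 0.726% of all counts in WT NC and 0.977, 0.962 and 0.924% in WT CCl4. The WT CCl4 libraries lay above all WT NC libraries, with means of 0.954% ± 0.0274 and 0.783% ± 0.0947 (SD, n = 3 each). The ratio of means was 1.22 (exact two-sided permutation test p = 0.1, the smallest that 3 against 3 allows; 0.3 after Benjamini-Hochberg adjustment over the 3 comparisons). KO 72 and KO 79 stood at 0.650 and 0.728%, and KO 75 at 1.15%, the highest of the 9 libraries. KO CCl4 averaged 0.842% ± 0.269 (SD, n = 3), which overlapped both WT groups (exact permutation p = 0.4 against WT CCl4 and 0.9 against WT NC). The rise with CCl4 depended on the denominator. Mitochondrial genes took 9.13 to 12.0% of counts in WT NC, 25.4 to 26.3% in WT CCl4 and 19.3 to 21.01% in KO CCl4, and without them the members' share was 1.47 times as high in WT CCl4 as in WT NC. With library totals scaled by trimmed mean of M values (TMM), which equalises the bulk of the genes, the ratio was 0.961, and as a share of summed FPKM it was 0.999. Large-subunit counts were 1.15 to 1.18 times the small-subunit counts in WT NC, 1.16 to 1.21 times in WT CCl4 and 1.18 to 1.20 times in KO CCl4, and these ranges overlapped. In these samples, labelled as liver with hepatocyte as the cell type, fewer cells of a type and less RNA per cell cannot be told apart.

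**Figure D3:**
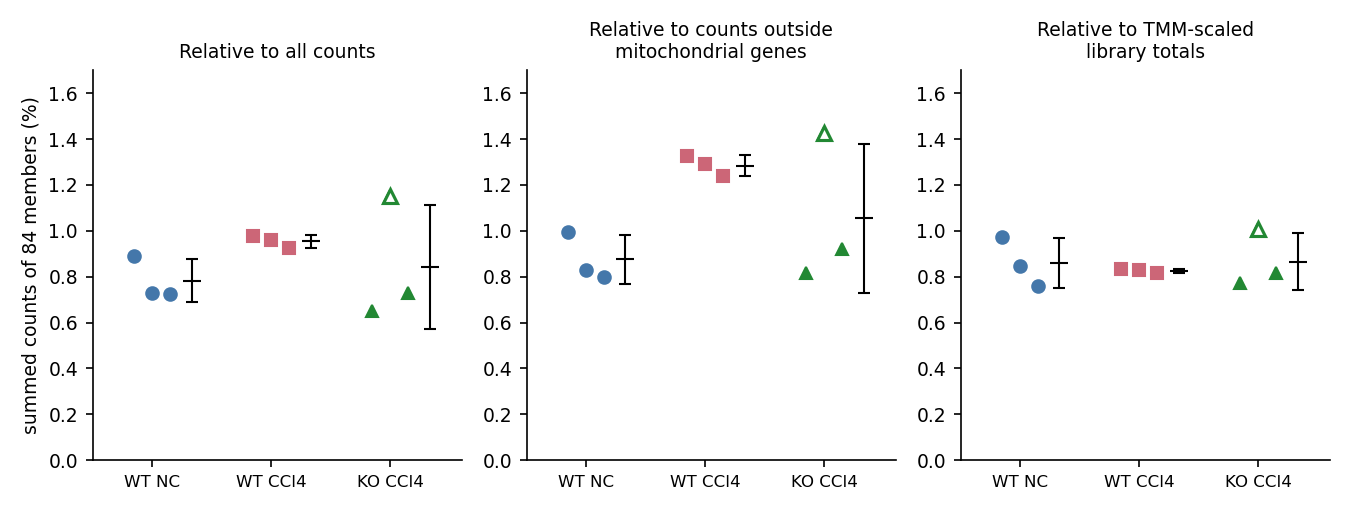
Summed counts of the 84 members in each library (y axis) as a percentage of all counts, of counts outside mitochondrial genes, and of TMM-scaled totals; points are libraries, the open triangle is KO 75, and bars are mean ± SD (n = 3). WT CCl4 lies above WT NC in the first 2 panels and within its range in the third, and KO 75 is the highest library in each.

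Between CCl4 and NC in WT, few ribosomal protein genes passed the test, in a comparison where more genes were called than not. In edgeR's quasi-likelihood fit, with p-values adjusted by Benjamini-Hochberg over all genes, 1 of the 81 tested members rose (Rpl3) and 4 fell (Rps27l, Rpl35a, Rpl22 and Rps18), which is 6.17% of the members. Of all 14134 genes tested, 54.4% were called, 29.5% higher and 25.0% lower. The median log2 fold change of the members was -0.05, against 0.04 over all genes, and it moved to -0.18 without WT NC 3 and to 0.04 without WT NC 1. Of the members, 72 (88.9%) lay within 0.5 of no change on the log2 scale, while 34.8% of all genes did. The median standard error was 0.19 for the members and 0.28 for all genes. By subunit, 1 of 48 large-subunit members rose and 2 fell, with a median of -0.03, and of 33 small-subunit members 0 rose and 2 fell, with a median of -0.11. The number of members called varied when single libraries were removed. Removing KO 75 gave 12 calls (5 higher, 7 lower), where 58.9% of all genes were called, removing WT NC 3 gave 11 (1 higher, 10 lower; 46.7% of all genes), and removing WT CCl4 12 gave 3 (1 higher, 2 lower; 43.9% of all genes). KO 75 is in neither group compared here, but the fit estimates spread over all libraries. Without it Rpsa went from 0.37 (SE 0.18) to 0.36 (SE 0.13), and Rps6 stayed at 0.77 (SE 0.37, then 0.28). The standard error of Rps23 went the other way, from 0.50 to 0.52. On log2(FPKM + 1), limma called 7 of 75 members (5 higher, 2 lower) against 53.7% of all genes, on a scale where the median of all genes was 0.21.

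**Figure D4:**
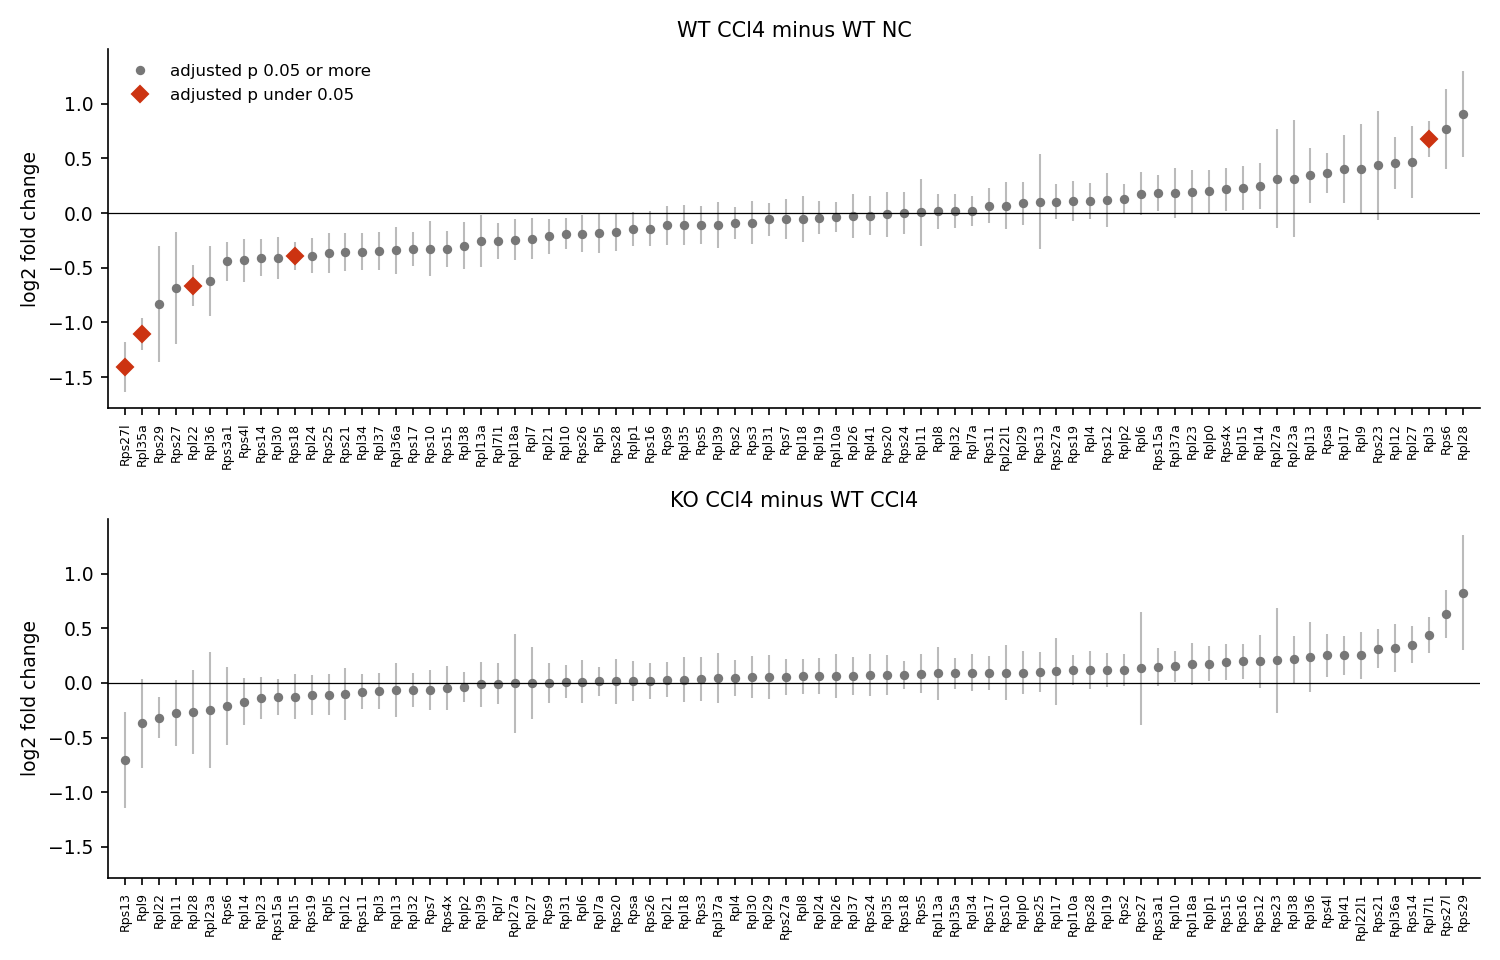
Log2 fold changes (y axis) of 80 tested members, sorted in each panel, for WT CCl4 minus WT NC and KO CCl4 minus WT CCl4; bars are ± 1 standard error of the edgeR fit and diamonds are members with an adjusted p under 0.05. Most members lie within 0.5 of 0; 5 are called in the upper panel and 0 in the lower.

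Rpl3 (chr15:80077794-80091868 in mm10), whose protein reaches into the peptidyl transferase centre of the large subunit, stood at 70.8, 74.2 and 59.8 TMM-scaled CPM in WT NC, 115, 103 and 109.6 in WT CCl4, and 86.1, 124 and 101 in KO 72, 75 and 79. All 6 CCl4 libraries lay above all NC libraries. The log2 fold change with CCl4 in WT was 0.68 (SE 0.17, edgeR adjusted p = 0.00865). A second gene, Syngr1, overlaps its locus, with 595 counts against 15612. Of the 100-base words of Rpl3, 79.4% occur in other annotated genes, as do 85.6% of its 50-base words. Its 1 annotated copy is not listed in the deposited table, so its separate value is uncertain in the way given above. Rpl3l, the striated muscle form that can replace Rpl3, had at most 0.21 CPM in any library and was not tested.

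Rps27l (chr9:66946086-66949516) encodes a small-subunit protein close to Rps27, and its gene is a known p53 target. It stood at 183, 141 and 113 CPM in WT NC, 47.1, 57.1 and 60.4 in WT CCl4, and 103, 69.2 and 82.5 in KO 72, 75 and 79. WT CCl4 was the lowest group, KO CCl4 lay between, and no libraries of the 3 groups overlapped. It fell by 1.41 on the log2 scale with CCl4 in WT (SE 0.22, edgeR adjusted p = 0.00145), the largest fall among members. None of its 100-base words, and 22.4% of its 50-base words, occur in another annotated gene. The copy-rich parent Rps27 could not be read alone, at 0.55 to 1.93 CPM in WT NC and 0.61 to 0.95 in WT CCl4. The summed counts of Rps27 and Rps27rt fell by 0.67 with CCl4 (SE 0.21, edgeR adjusted p = 0.0215), a sum chosen after seeing the data. Nearly all of these counts were those of Rps27rt, 13019 against 152, so the fall is not read as that of Rps27. The Rps27 row alone was at -0.69 (SE 0.51, edgeR adjusted p = 0.279). The ratio of Rps27l to Rps27rt, in FPKM, was 0.242 to 0.265 in WT NC, 0.137 to 0.188 in WT CCl4 and 0.179 to 0.331 in KO CCl4, with KO 75 at the low end.

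Rpl35a (chr16:33056453-33060189), a large-subunit protein mutated in some human patients with Diamond-Blackfan anaemia, stood at 43.8, 37.9 and 34.1 CPM in WT NC, 17.7, 18.5 and 17.6 in WT CCl4, and 17.6, 20.4 and 19.2 in KO CCl4. Both CCl4 groups lay at about the same level, KO 75 included, and below every NC library. The fall was 1.10 on the log2 scale (SE 0.15, edgeR adjusted p = 0.000898). Of its 100-base words, 34.2% occur in other annotated genes, as do 54.5% of its 50-base words. Its 5 annotated copies are not listed in the deposited table, so any reads assigned to them cannot be seen.

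Rpl22 (chr4:152325742-152334071), an RNA-binding protein at the surface of the large subunit, stood at 114, 74.9 and 79.7 CPM in WT NC, 56.3, 50.2 and 63.0 in WT CCl4, and 42.3, 50.01 and 43.6 in KO CCl4. The WT CCl4 and KO libraries lay below all NC libraries. It fell by 0.66 with CCl4 in WT (SE 0.19, edgeR adjusted p = 0.0151), a difference no longer called after removing WT NC 1 (edgeR adjusted p = 0.0504) or WT CCl4 12 (0.0621). Its paralogue Rpl22l1, which Rpl22 protein is known to repress in mice, stood at 16.7, 12.8 and 11.7 CPM in WT NC, 11.0, 16.5 and 15.6 in WT CCl4, and 14.2, 18.3 and 18.9 in KO CCl4, and did not pass the test in any comparison. The ratio of Rpl22l1 to Rpl22, in FPKM, was 0.208 to 0.243 in WT NC, 0.278 to 0.467 in WT CCl4 and 0.479 to 0.616 in KO CCl4, with no overlap between groups and KO 75 at 0.520. Of the 100-base words of Rpl22l1, 50.8% occur in other annotated genes, and its copy Gm15421 held 712 counts against 2475.

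Rps18 (chr17:33951999-33956001), a protein of the small subunit's head, stood at 48.1, 43.4 and 41.0 CPM in WT NC, 33.7, 32.2 and 35.0 in WT CCl4, and 36.7, 36.6 and 32.8 in KO CCl4. All CCl4 libraries lay below all NC libraries, and its fold change was the smallest of the 5 called members. It fell by 0.39 (SE 0.13, edgeR adjusted p = 0.0263), and the call was lost without WT NC 1, WT NC 2, WT CCl4 11 or WT CCl4 12 (adjusted p from 0.0504 to 0.0927). In FPKM the groups overlapped, at 9.08 to 10.6 in WT NC and 9.02 to 9.56 in WT CCl4. The overlapping gene Vps52 held 3221 counts against 6094 for Rps18. Of the 100-base words of Rps18, 57.3% occur in other annotated genes, as do 86.7% of its 50-base words. The calls of Rpl3, Rps27l and Rpl35a held without each of the 9 libraries in turn.

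**Figure D5:**
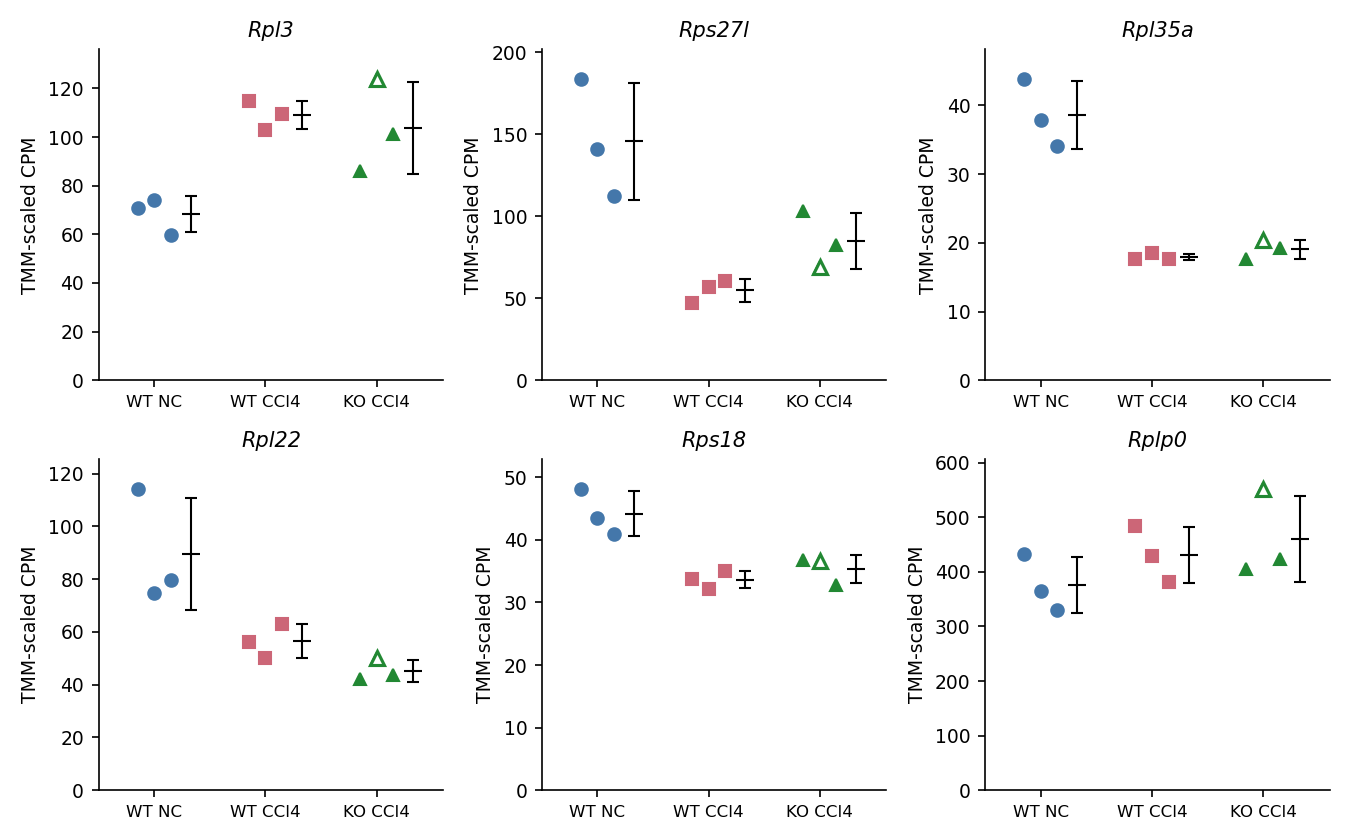
TMM-scaled CPM (y axes, from 0) of the 5 members called between WT CCl4 and WT NC, and of Rplp0, a reference gene; points are libraries, the open triangle is KO 75, and bars are mean ± SD (n = 3). For the first 5 genes both CCl4 groups lie on one side of WT NC, while the groups of Rplp0 overlap.

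The remaining members are given by role. Of the P-stalk, whose Rplp0 base carries Rplp1 and Rplp2, 0 of 3 passed the test, with log2 fold changes of 0.20, -0.15 and 0.13 (SE 0.20, 0.16 and 0.14) with CCl4 in WT. Rplp0, a common reference gene for quantitative PCR, stood at 432, 365 and 330 CPM in WT NC and 484, 429 and 381 in WT CCl4. Of the 5S particle, whose proteins bind the p53 regulator Mdm2 when assembly stalls, 0 of 2 passed, with Rpl5 at -0.18 (SE 0.19) and Rpl11 at 0.01 (SE 0.30). The Rpl11 row held 384 counts over the 9 libraries, and 59.7% of its 100-base words occur in other annotated genes. Its 1 annotated copy is not listed in the deposited table, so the separate values of both genes are uncertain. Rpl5 with its copy added stood at -0.02 (SE 0.16). Rpsa, which doubles as the laminin receptor, stood at 409 to 503 CPM in WT NC and 572 to 584 in WT CCl4 without overlap, with a log2 fold change of 0.37 (SE 0.18, edgeR adjusted p = 0.115). It passed only without KO 75 (edgeR adjusted p = 0.0396) or on FPKM (limma adjusted p = 0.0253), where the median of all genes stood at 0.21. Rps6 stood at 1.60 to 2.59 CPM in WT NC and 3.24 to 4.05 in WT CCl4, with a log2 fold change of 0.77 (SE 0.37, edgeR adjusted p = 0.101), and passed without KO 75 (edgeR adjusted p = 0.042) and on FPKM (limma adjusted p = 0.047). These values rest on 30 to 39 counts in WT NC and 64 to 77 in WT CCl4. Of the 100-base words of Rps6, 83.6% occur in other annotated genes. Its 1 annotated copy is not listed in the deposited table, so its separate value is uncertain. Rps3, at the entry of the messenger channel, was at -0.09 (SE 0.20), Rps19, which is mutated in human Diamond-Blackfan anaemia, at 0.11 (SE 0.18), and Rpl13a, another reference gene, at -0.26 (SE 0.24). None of these 3 passed.

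Among paralogue pairs, Rpl7 (-0.24, SE 0.19) and its relative Rpl7l1 (-0.25, SE 0.16) did not pass with CCl4 in WT. Neither did X-linked Rps4x (0.22, SE 0.20) and its relative Rps4l on chromosome 6 (-0.43, SE 0.20), although Rps4l passed without WT NC 1 (edgeR adjusted p = 0.0297). Rpl10 was at -0.19 (SE 0.14) and Rpl39 at -0.11 (SE 0.21). Of their testis forms, Rpl10l had no count and Rpl39l had at most 3 counts in a library, which is the floor. Adding the counts of near-identical copies moved the log2 fold changes of low members in different ways. Rpl27 went from 0.46 (SE 0.33) to -0.01 (SE 0.15) and Rpl9 from 0.40 (SE 0.41) to 0.01 (SE 0.13). Rpl12 went from 0.46 (SE 0.24) to 0.18 (SE 0.17) and Rpl23a from 0.31 (SE 0.54) to -0.28 (SE 0.17). None of them passed with or without the copies. Tlcd1, with 2482 counts against 135, overlaps the locus of Rpl23a, and Lrsam1, with 1605 against 1504, that of Rpl12. Rps12 went from 0.12 to 0.23 and Rps7 from -0.06 to -0.17, away from no change. With copies added, 1 of 81 members rose and 5 fell, where 54.5% of all genes were called. The fifth was the sum of Rps27 and Rps27rt, whose counts were nearly all those of Rps27rt.

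Measured within the ribosomal protein counts alone, by taking each library's summed member counts as its size, few members changed their share. With CCl4 in WT, 1 of 81 members took a larger share of these counts (Rpl3, log2 0.73, SE 0.18, edgeR adjusted p = 0.00826) and 3 a smaller one. These were Rps27l (-1.34, SE 0.26, edgeR adjusted p = 0.00245), Rpl35a (-1.05, SE 0.17, edgeR adjusted p = 0.000992) and Rpl22 (-0.60, SE 0.19, edgeR adjusted p = 0.0255). Rps18 did not pass on this scale (-0.34, SE 0.18, edgeR adjusted p = 0.134). On it, 47.8% of all genes were called. Without KO 75, 4 members were higher and 4 lower on this scale, where 54.7% of all genes were called, and without WT NC 3, 3 were higher and 2 lower, where 40.6% were. Rpl22 lost its call on this scale without WT NC 1, WT NC 3, WT CCl4 11 or WT CCl4 12. Between KO and WT under CCl4 0 of 81 members were called, against 5.45% of all genes.

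Between KO and WT under CCl4, 0 of 81 members passed edgeR's test, while 5.07% of all genes did (3.46% higher, 1.61% lower). At an unadjusted p under 0.05 there were 2 members, Rps27l and Rpl7l1, and DESeq2 (18.4% of all genes called) and limma on FPKM (6.38%) also called 0 members. Of the members, 78 (96.3%) lay within 0.5 of no change on the log2 scale, while 53.8% of all genes did. The members' median was 0.05 against -0.03 over all genes. The median standard error was 0.19 for the members and 0.27 for all genes. Rps27l had the largest value among the 5 genes called with CCl4 in WT, at 0.63 (SE 0.22, edgeR adjusted p = 0.0988), followed by Rpl35a at 0.09, Rps18 at 0.07, Rpl3 at -0.07 and Rpl22 at -0.32 (SE 0.14, 0.13, 0.17 and 0.19). Rpl7l1 stood at 46.2, 57.3 and 68.4 CPM in WT CCl4 and 84, 71.5 and 77.5 in KO 72, 75 and 79, all KO libraries above all WT CCl4 libraries, with a log2 fold change of 0.44 (SE 0.16, edgeR adjusted p = 0.11). In the TMM-scaled values KO 75 lay above both other KO libraries for 69 of the 81 members and below both for 3. The median ratio of KO 75 to the mean of the other 2 was 0.38 on the log2 scale. The same count was not made over all genes, so it is not read as particular to the members. The TMM factor of KO 75 was 1.14, against 0.841 for KO 72 and 0.893 for KO 79. Without KO 75, Rps27l (0.76, SE 0.22, edgeR adjusted p = 0.0246) and Rpl7l1 (0.50, SE 0.17, edgeR adjusted p = 0.0486) rose and 0 members fell, where 37.7% of all genes were called. The medians of the members and of all genes were then both -0.07, while without KO 72 the members' median was 0.14. With any library other than KO 75 left out, 0 members were called, where 0.0347 to 5.23% of all genes were. This comparison and the one with CCl4 in WT share the WT CCl4 libraries.

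Between KO with CCl4 and WT with NC, groups that differ in both genotype and treatment, 1 of 81 members was higher and 3 were lower, where 23.0% of all genes were called (14.0% higher, 8.98% lower). Rpl3 was higher by 0.60 (SE 0.17, edgeR adjusted p = 0.0328). Rpl35a was lower by 1.02 (SE 0.15, edgeR adjusted p = 0.00329), Rpl22 by 0.98 (SE 0.19, edgeR adjusted p = 0.00936) and Rps27l by 0.78 (SE 0.22, edgeR adjusted p = 0.0351). Without KO 75 Rpl35a and Rpl22 kept the call, where 17.3% of all genes were called, and Rpl3 and Rps27l did not (edgeR adjusted p = 0.0651 and 0.0798). Rpl3 also lost it without KO 79, WT CCl4 12 or any WT NC library (adjusted p from 0.0573 to 0.101), and Rps27l without KO 79, WT CCl4 12, WT NC 1 or WT NC 2 (0.0608 to 0.116), fits in which 8.67 to 15.3% of all genes were called. The median of the members was 0.00 on the log2 scale, against 0.04 over all genes, and ran from -0.10 without KO 75 to 0.09 without WT NC 1.

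Genes of the same pathway outside the symbol rule were counted in the same fit, where 29.5% of all genes were higher and 25.0% lower with CCl4 in WT. Of 4 further ribosomal proteins, 3 were found under their symbols, and with CCl4 in WT all 3 fell, among them Rpl36al (-0.93, SE 0.17, edgeR adjusted p = 0.00242) and Fau, a fusion of a ubiquitin-like protein with a small-subunit protein (-0.38, SE 0.14, edgeR adjusted p = 0.0495). Of 18 other genes listed for a TOP motif in their messengers, translation factors among them, 2 rose and 3 fell (median -0.16), with Hnrnpa1 at 1.65 and Naca, which chaperones new chains, at -0.63. Of 26 initiation factors, 2 rose and 6 fell (median -0.12), among them the cap-binding protein Eif4e at 1.54 and the helicase Eif4a2 at -1.12. Of 15 genes of the RNA polymerase I machinery, which transcribes ribosomal RNA, 2 rose and 2 fell (median -0.02).

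Of 45 ribosome assembly factors, 12 rose and 4 fell with CCl4 in WT (median 0.16). These shares of 26.7% and 8.89% are set beside 29.5% higher and 25.0% lower over all genes. Nop58, a core protein of the particles that methylate ribosomal RNA, rose by 1.37 (SE 0.18, edgeR adjusted p = 0.000976), and Nop10, of the particles that make pseudouridine, fell by 1.42 (SE 0.22, edgeR adjusted p = 0.00135). Of 10 host genes of small nucleolar RNAs 0 rose and 2 fell (median -0.43), with Epb41l4aos at -1.93 and Snhg8 at -1.24. Of 22 mTORC1 and growth regulators 2 rose and 9 fell (median -0.22). Myc, a transcription factor that drives ribosome production, stood at 3.39 ± 1.09 CPM in WT NC and 22.7 ± 12.6 in WT CCl4 (SD, n = 3; log2 2.75, SE 0.53, edgeR adjusted p = 0.00281), and Rps6kb2, a kinase of Rps6, at 17.0 ± 1.12 and 8.63 ± 0.203 CPM (-0.98, SE 0.14, edgeR adjusted p = 0.00117). Between KO and WT under CCl4, Ddit4, an inhibitor of mTORC1, rose by 1.79 (SE 0.35, edgeR adjusted p = 0.0375). No other of the 139 genes tested in these 7 lists passed, where 5.07% of all genes were called. Without KO 75, 12 of the 139 were higher and 11 lower, where 37.7% of all genes were called.

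Of 8 common reference genes for quantitative PCR that are not ribosomal, 4 changed with CCl4 in WT, or 50%, near the 54.4% of all genes called. Actb rose by 1.67 (SE 0.34, edgeR adjusted p = 0.00384) and Tfrc by 1.67 (SE 0.20, edgeR adjusted p = 0.00064), while B2m fell by 0.73 (SE 0.21, edgeR adjusted p = 0.0172). Rplp0 and Rpl13a did not pass the test in any of the 3 comparisons.

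The promoters of members were read from RefSeq (GRCm38.p6), which gave a window of 250 bases before to 50 after the start for 63 of the 84, Rpl3 not among them. The motifs were chosen after the sequences had been seen. The ETS core CCGGAA occurred on either strand in 52.4% of the members' windows and in 15.2% of the 27025 genes' windows. CTCGCGAGA was present in 11.1% against 0.718%, AAGATGGCG, the letters of the YY1 motif, in 6.35% against 1.49%, and the TATA box letters TATAAA in 9.52% against 14.2%. None of these 4 motifs contains another. A run of at least 7 pyrimidines, C or T, within 20 bases of the start on the gene's strand occurred in 55.6% against 24.2%. The windows of 3 of the members that fell are printed from 60 bases before to 20 after the RefSeq start, with the CCGGAA motif, and those runs of at least 7 pyrimidines that reach into the 20 bases on either side of the start, in capitals. Rps27l carries both, Rps18 a pyrimidine run, and Rpl35a neither in these 80 bases, so the windows of these genes differ from each other in the letters searched.
Rps27l, chr9:66946026-66946105, plus strand: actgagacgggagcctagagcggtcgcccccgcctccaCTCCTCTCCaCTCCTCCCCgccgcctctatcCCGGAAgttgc
Rps18, chr17:33955646-33955725, minus strand: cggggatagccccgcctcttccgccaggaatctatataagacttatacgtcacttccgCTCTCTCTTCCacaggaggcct
Rpl35a, chr16:33056393-33056472, plus strand: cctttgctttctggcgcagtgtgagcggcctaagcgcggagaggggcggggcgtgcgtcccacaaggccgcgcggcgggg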

How the data were processed

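The authors deposited whole-number counts and FPKM per gene, per the file headers, and the submitters' processing notes name HISAT2 2.0.4, StringTie 1.3.0, mm10 and GRCm38.p4. The sources used here do not name the counting tool, its strand setting or its handling of multi-mapping reads. Nor do they say whether replicates were separate animals, and p-values then measure only the spread between these samples, which may be technical.

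Counts were tested with edgeR 4.0.16 in R 4.3.3 over all 9 libraries (TMM, filterByExpr with 14134 genes kept, quasi-likelihood fit, Benjamini-Hochberg threshold 0.05). The biological coefficient of variation was 0.312. Standard errors were the absolute log2 fold change over the square root of F, and CPM were TMM-scaled. Composition used summed member counts as library size. Summed shares were compared with exact permutation tests (SciPy). Copies were searched in GENCODE M21 transcripts. Over the members, chi-square per degree of freedom between libraries of the same group was 5.01 to 23.5, so no library was counted as a repeat deposit of another, which does not show that they came from separate animals. The fit was tested on simulated data.

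Alternatives were DESeq2 1.42.0, its size factors in edgeR, no count filter, limma 3.58.1 on log2(FPKM + 1), 6 samples only, a fold change of 1.5, no mitochondrial genes, and each library left out. Adding copies and TMM-scaled totals were chosen after seeing the data. Members, gene lists and tests were chosen with earlier results of these data known. Named members were 24 listed for their role, the 4 largest rises and falls among called members in the first 2 comparisons and the 3 largest on the composition scale; of other lists, up to 2 genes in each direction with the smallest p. Rpl4, Rpl8, Rps2, Rps7, Rpl9, Rpl12, Rpl23a, Rpl27, Rpl35, Rpl37 and Rps12 were named for their level or copies after their values were seen. A few results of single genes are not reported here.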

Additional observations from a re-analysis of the deposited data

How the results depend on the processing

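Counts of called members depended on the setting as follows, and so did the share of all genes called. With CCl4 in WT, the number higher was 0 under a fold change of 1.5, 5 by limma on FPKM, 3 with only the 6 samples compared and 1 to 5 with a library left out; the number lower was 2, 2, 5 and 2 to 10, and 34.7, 53.7, 56.9 and 42.8 to 58.9% of all genes were called. Between KO with CCl4 and WT with NC the number higher was 0 under the fold change of 1.5, limma and the 6 samples, and 0 to 1 with a library left out; the number lower was 1 under the fold change of 1.5 and 2 to 3 with a library left out, and the share of all genes was 8.59, 15.6, 19.4 and 8.67 to 25.3%. Between KO and WT under CCl4 it was 0 to 2 higher and 0 lower with a library left out (0.0347 to 37.7% of all genes). Within the member counts, the number higher with CCl4 in WT was 3 with TMM among the members, 2 with the 6 samples and 1 to 4 with a library left out (47.9, 52.5 and 36.1 to 54.7% of all genes), the number lower 2 to 4, and between KO and WT 0 to 1 higher (0.0347 to 33.5%). The log2 ratio of summed shares, 0.29 for CCl4 against NC in WT, turned to -0.058 with TMM-scaled totals and -0.00079 as a share of FPKM (0.23 to 0.39 with a library left out). That of KO against WT under CCl4, -0.18, turned to 0.066 with TMM-scaled totals (-0.47 to -0.023), and that of KO CCl4 against WT NC, 0.11, to -0.053 as a share of FPKM and -0.19 without KO 75 (-0.19 to 0.26). Members near no change turned sign: on FPKM, with CCl4 in WT, Rpl10 (0.13), Rpl13a (0.10), Rpl39 (0.20), Rpl5 (0.13), Rpl7 (0.10), Rpl7l1 (0.067), Rplp1 (0.20) and Rps3 (0.26), and between KO and WT Rpl35a (-0.15) and Rps18 (-0.19), where the median of all genes moved to 0.21 and -0.19; with a library left out, Rpl11 (-0.17 to 0.11), Rpl22l1 (-0.067 to 0.23), Rps19 (-0.019 to 0.24), Rps3 (-0.20 to 0.039) and Rpl3 between KO and WT (-0.22 to 0.048); and Rpl11 without mitochondrial genes (-0.016). The causes were not tested. No paired analysis was possible because the groups share no replicate numbers. With 3 libraries a group the median standard error of a member was 0.19 on the log2 scale, which limits the size of change that could be called, and members with few counts (Rps29, Rps23, Rps27, Rpl23a) had standard errors of 0.50 to 0.54.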
